A study of Canis lupus familiaris with 28 samples.

Results

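Regulatory partners of protein phosphatase 1 (PP1) and of calcineurin were examined in canine oral malignant melanomas (OMMs). The set holds 44 genes chosen by symbol, namely the numbered PP1 regulatory subunits (PPP1R genes), the PHACTR and CSRNP families, GPATCH2, KNL1 and the calcineurin regulators CHP1, RCAN1, RCAN2, RCAN3 and CABIN1. Of these, 40 had a Transcript cluster of their own (the set of probes along 1 transcribed locus) among the 32391 on the array, 4 of them with 2, in which case the brighter was used. PPP1R1A, PPP1R14A and PPP1R7 had no Transcript cluster under their symbol, and PPP1R18 shared one with NRM, so these 4 genes have no values here.

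RNA came from formalin-fixed, paraffin-embedded biopsies of primary tumours, 1 array per tumour and 1 tumour per dog. The 18 metastasising (M) OMMs were from dogs that died of metastatic OMM, and the 10 non-metastasising (NM) OMMs were from dogs that lived past a fixed follow-up after surgery with no adjuvant therapy. Of the Golden Retriever OMMs 4 were M and 4 NM, of the Labrador Retriever OMMs 3 and 2, and of the Cross breed OMMs 6 and 1. The remaining M OMMs were from 2 Dachshunds, a Border Collie, a Bullmastiff and a Cocker Spaniel, and the remaining NM OMMs from a Great Dane, an Irish Terrier and a Bouvier des Flandres. The M dogs were at higher clinical stages than most NM dogs, so stage and metastatic status cannot be told apart. The NM biopsies had also been stored longer on average before RNA isolation. The study found no correlation of biopsy age with its RNA integrity score. Biopsy age was a term in none of the fits, so its part in the M and NM differences was not tested.

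PP1 is a serine/threonine phosphatase whose few catalytic subunits gain their targets from a large number of regulatory proteins, most of which dock through a short shared motif. These partners send PP1 to glycogen particles, to myosin, to actin, to kinetochores or to the translation factor eIF2α, or hold it inactive. Calcineurin is the calcium-activated phosphatase that dephosphorylates NFAT transcription factors, and it is restrained by RCAN proteins, CABIN1 and CHP1. The roles given below are known mainly from human and mouse work.

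Values are RMA log2 signals, and differences between groups are differences of mean log2 values. The means of the 40 regulators over all tumours ran from 1.15 to 2.64, which is in the low part of the scale, where 74.2% of all Transcript clusters had a mean under 2. The table holds no detection calls, so which regulators were above background is unknown. The SD of a regulator over the 28 tumours ran from 0.11 to 0.90 with a median of 0.25. The first principal component of all Transcript clusters held 34.9% of the variance and was low in the Cross breed OMMs (-93.2 to -37.5) and mostly high in the Golden Retriever OMMs (-22.5 to 89.2), but had similar ranges in M OMMs (-93.2 to 88.2) and NM OMMs (-58.6 to 89.2). PMEL, a melanosome protein that marks melanocytes, had lowest, median and highest log2 values of 1.7, 3.83 and 6.74 in M OMMs and 2.0, 3.18 and 6.55 in NM OMMs. The mean of 10 melanocyte markers was between 1.67 and 4.07 in M OMMs and between 1.69 and 4.59 in NM OMMs, and its lower end lay near the median of all Transcript clusters (1.62).

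**Figure D1:**
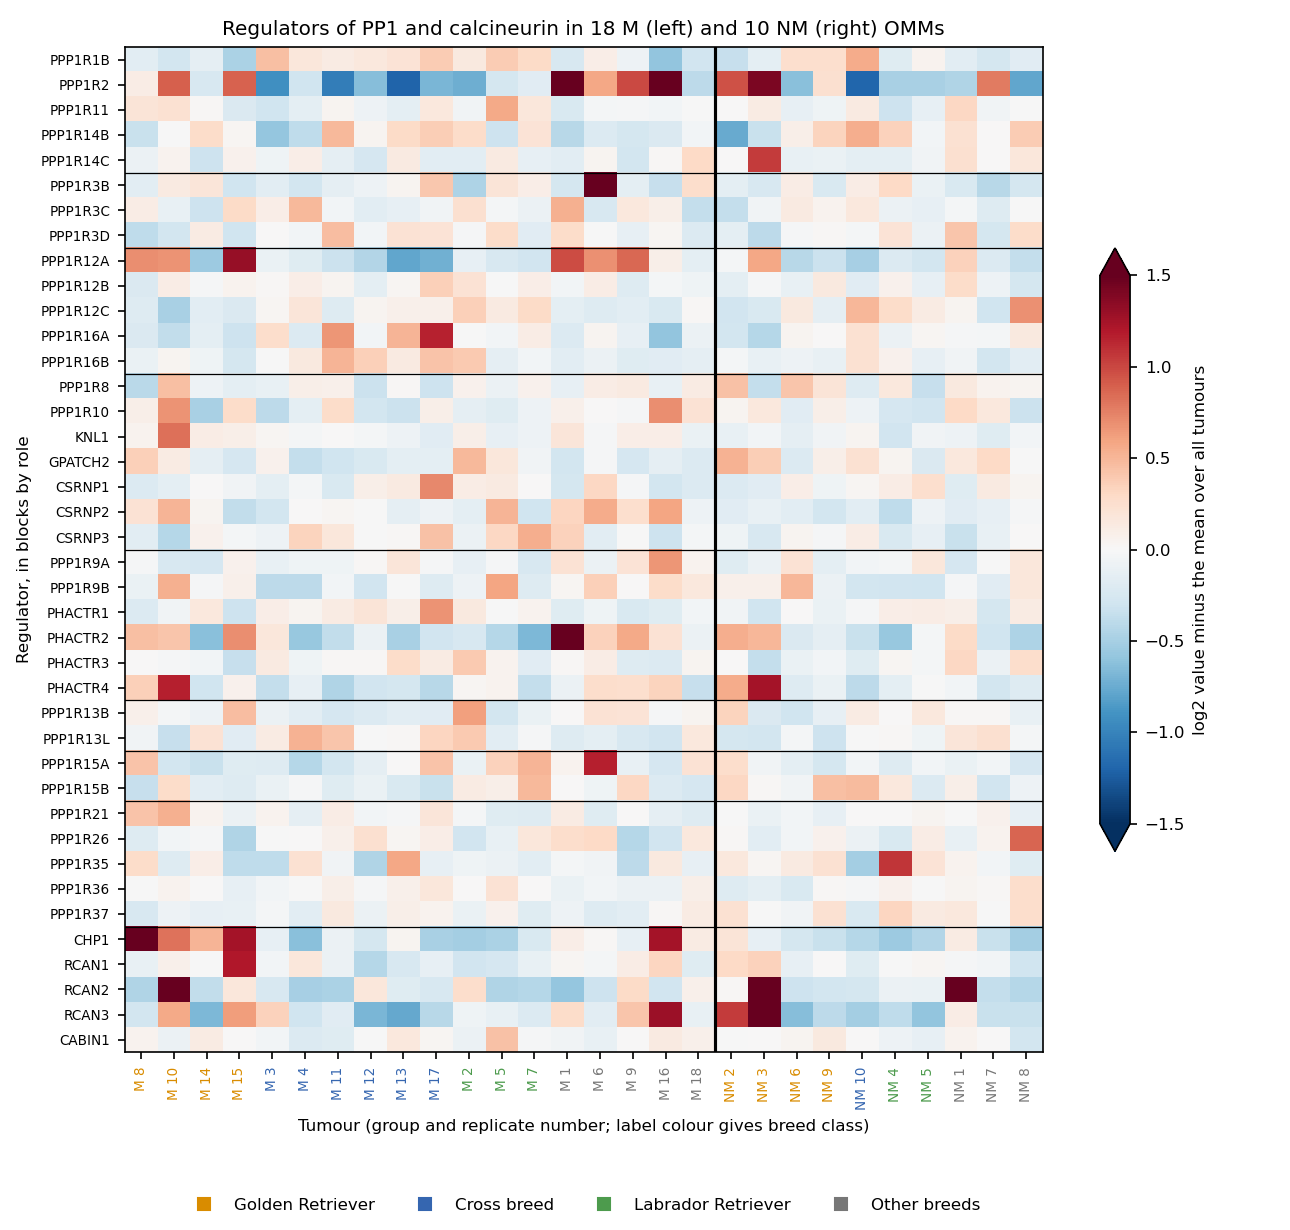
Heat map of the log2 value of each of 40 regulators minus its mean over all tumours, with 18 M OMMs left of the line and 10 NM OMMs right of it, ordered by breed class within each group; colours saturate at 1.5. No row splits cleanly at the line, and PPP1R2, whose SD of 0.90 was the highest of the 40, is low in the Cross breed columns of both groups.

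Whether expression differed between M and NM OMMs was tested with limma over all Transcript clusters. No regulator passed a Benjamini-Hochberg adjusted p of 0.05, and neither did any other Transcript cluster (0 of 32391, 0%). At an unadjusted p under 0.05 there were 3 of 40 regulators, against 825 of all Transcript clusters (2.55%), and the methods' t-test gave 4 regulators and 846 Transcript clusters. Of the 40, 26 had a higher mean in M OMMs and 14 a lower one, where 50.4% of all Transcript clusters were higher and 49.6% lower, and the median difference was 0.03 over the regulators and 0.00072 over all Transcript clusters. M and NM values overlapped for each of the 40, as they did for all 32391 Transcript clusters (0% without overlap in either direction).

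Of the 7 nuclear and mitotic subunits 4 had a higher mean in M OMMs and 3 a lower one, and CSRNP2 and GPATCH2 had an unadjusted p under 0.05. CSRNP2 is a nuclear protein of the cysteine- and serine-rich family that binds PP1. Its lowest, median and highest log2 values were 1.6, 1.98 and 2.55 in M OMMs and 1.58, 1.81 and 1.95 in NM OMMs. The NM values lay close together, and 11 of 18 M OMMs were above the highest of them. The means were 2.06 ± 0.30 (SD, n = 18) in M OMMs and 1.80 ± 0.10 (SD, n = 10) in NM OMMs, a difference of 0.26 (SE 0.10, limma unadjusted p = 0.0163, adjusted p = 1.0). The difference was 0.28 within Golden Retriever OMMs, 0.25 within Labrador Retriever OMMs and 0.08 within Cross breed OMMs, the last against 1 NM tumour. With breed as a fixed block over the 3 breed labels found in both groups it was 0.23 (unadjusted p = 0.0704).

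GPATCH2 is a G-patch protein of the nucleus that associates with RNA-processing factors. It had 1.32, 1.54 and 2.16 as lowest, median and highest values in M OMMs and 1.46, 1.80 and 2.21 in NM OMMs. Although 15 of 18 M OMMs were under the NM median, the 2 ranges overlapped almost throughout. The difference was -0.20 (SE 0.09, limma unadjusted p = 0.0384, adjusted p = 1.0). Its second Transcript cluster differed by -0.17 (unadjusted p = 0.0863), and within Labrador Retriever OMMs the difference was 0.29, in the other direction. With the same block it was -0.09 (unadjusted p = 0.507).

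KNL1 is the kinetochore scaffold that recruits the BUB checkpoint proteins and PP1 to chromosomes in mitosis. Its lowest, median and highest values were 1.13, 1.31 and 2.12 in M OMMs and 1.01, 1.24 and 1.34 in NM OMMs, and 8 of 18 M OMMs were above the highest NM value. The highest, a Golden Retriever tumour (M replicate 10), stood far above the rest, whose maximum was 1.48. The difference was 0.15 (SE 0.07, limma unadjusted p = 0.0562, adjusted p = 1.0). The partners of KNL1 in the outer kinetochore (the BUB, NDC80 and MIS12 complexes and ZWINT) were higher in M OMMs for 8 of 10 measured genes, none at an unadjusted p under 0.05, with a median difference of 0.07. CSRNP3 averaged 1.37 ± 0.26 (SD, n = 18) in M OMMs and 1.22 ± 0.14 (SD, n = 10) in NM OMMs (difference 0.15, limma unadjusted p = 0.105). The other members of the group, PPP1R8 and PPP1R10, which tether PP1 to chromatin and to the transcription machinery, and CSRNP1, differed by -0.09 to 0.05.

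PPP1R37 is a leucine-rich repeat protein that binds and inhibits PP1. It had lowest, median and highest values of 1.42, 1.58 and 1.82 in M OMMs and 1.44, 1.81 and 1.99 in NM OMMs. Only 1 of 18 M OMMs was above the NM median, and 5 of 10 NM OMMs were above the highest M value. The means were 1.61 ± 0.12 (SD, n = 18) in M OMMs and 1.77 ± 0.17 (SD, n = 10) in NM OMMs (difference -0.16, SE 0.06, limma unadjusted p = 0.0101, adjusted p = 1.0), and this was the smallest unadjusted p among the 40. The lowest NM value came from the only Cross breed NM OMM, and without the Cross breed OMMs the difference was -0.23 (unadjusted p = 0.000948), whereas with breed as a fixed block it was -0.16 (unadjusted p = 0.0657). Of the other numbered subunits, the centriolar protein PPP1R35 differed by -0.18, or by -0.07 without NM replicate 4, and PPP1R21, an endosomal protein, PPP1R26 and PPP1R36 differed by -0.07 to 0.04.

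Among the calcineurin regulators CHP1 showed the largest difference of the 40. CHP1 is an EF-hand protein that binds sodium/proton exchangers and inhibits calcineurin. It had lowest, median and highest values of 1.87, 2.46 and 4.01 in M OMMs and 1.95, 2.16 and 2.69 in NM OMMs. Of the M OMMs 5 of 18 were above every NM OMM, namely 4 Golden Retriever OMMs and the Bullmastiff OMM, while the other 13 lay within or near the NM range. The means were 2.64 ± 0.65 (SD, n = 18) in M OMMs and 2.23 ± 0.25 (SD, n = 10) in NM OMMs, a difference of 0.41 (SE 0.21, limma unadjusted p = 0.0576, adjusted p = 1.0). With breed as a fixed block it was 0.63 (unadjusted p = 0.00224), and without the Cross breed OMMs 0.60 (unadjusted p = 0.0189).

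RCAN1, which NFAT induces and which feeds back on calcineurin, had the same mean in M and NM OMMs to within 0.003 (1.73 ± 0.35 in M, n = 18, and 1.74 ± 0.20 in NM, n = 10, SD). RCAN2 and RCAN3, its paralogues, differed by -0.30 and -0.06 with SEs of 0.25 and 0.27, with single tumours high, up to 3.84 for RCAN2 and 3.31 for RCAN3 in M OMMs and up to 4.19 and 4.43 in NM OMMs. On leaving out each tumour these differences ran from -0.40 to -0.10 for RCAN2 and from -0.14 to 0.20 for RCAN3. CABIN1, which binds calcineurin and represses MEF2, differed by 0.04. The catalytic subunits PPP3CA, PPP3CB and PPP3CC differed by -0.07, 0.01 and -0.09, and of 12 measured calcineurin substrates and effectors (NFAT, MEF2 and CRTC genes among them) 4 were higher and 8 lower in M OMMs, none at an unadjusted p under 0.05.

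**Figure D2:**
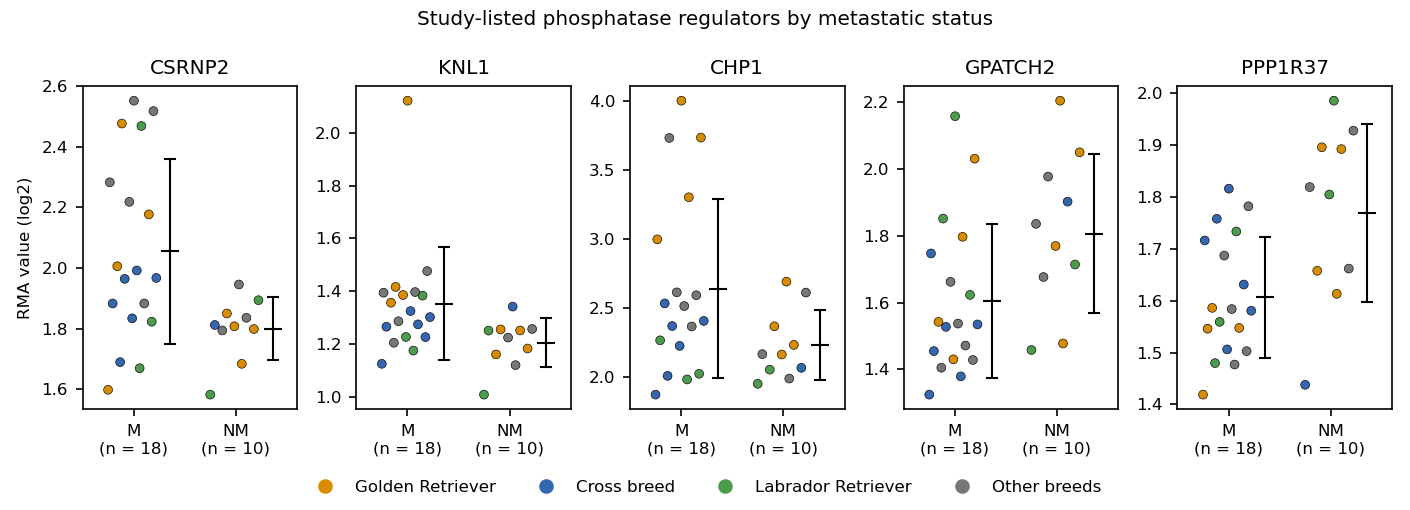
Log2 values of CSRNP2, KNL1, CHP1, GPATCH2 and PPP1R37 in 18 M OMMs (left of each panel) and 10 NM OMMs (right); each point is a tumour, coloured by breed class, and bars give the mean and SD. The groups overlap in every panel, and 5 M OMMs exceed every NM OMM for CHP1.

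These 5 genes (CSRNP2, GPATCH2, KNL1, PPP1R37 and CHP1) are the ones that the study lists under negative regulation of phosphatase activity among its differentially expressed genes. They were chosen on these same tumours, so their directions are not independent evidence. They also have the 5 smallest unadjusted p-values of the 40. Leaving out each tumour in turn left each adjusted p at 1.0 or just under it. Without NM replicate 4, a Labrador Retriever tumour, the unadjusted p was highest for 4 of the 5 (KNL1 0.112, CSRNP2 0.0344, PPP1R37 0.0275, CHP1 0.0920), and for GPATCH2 it was highest without NM replicate 2 (0.0993).

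In the remaining roles differences between M and NM OMMs were small against their errors, and no regulator had an unadjusted p under 0.05. The soluble inhibitors were PPP1R1B (a dopamine-regulated inhibitor), PPP1R2, PPP1R11 and the kinase-activated inhibitors PPP1R14B and PPP1R14C. They differed by -0.14 to 0.10, with PPP1R2 between 1.45 and 4.53 in M OMMs and between 1.45 and 4.06 in NM OMMs. The glycogen targeting subunits PPP1R3B, PPP1R3C and PPP1R3D had differences of 0.17, 0.08 and 0.01 between M and NM OMMs. PPP1R3B, the liver-type subunit, reached 3.79 in 1 Dachshund M OMM (M replicate 6) against a highest NM value of 1.98, and its difference was 0.05 without that tumour. That of PPP1R3D ran from -0.04 to 0.05 on leaving out each tumour. Of 10 measured glycogen enzymes 8 were lower in M OMMs, and GYG1 (glycogenin, the primer of glycogen) had a difference of -0.15 (limma unadjusted p = 0.0357, adjusted p = 1.0).

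The myosin targeting subunits PPP1R12A, PPP1R12B and PPP1R12C direct PP1 to myosin light chains, and PPP1R16A and PPP1R16B are membrane-anchored relatives. Their differences ran from -0.13 for PPP1R12C to 0.22 for PPP1R12A. PPP1R12A was above its highest NM value of 2.95 in 6 of 18 M OMMs and under its lowest NM value of 1.87 in 3 of them, so that M values spread to both sides of NM values. The actin-linked subunits differed by -0.07 to 0.11 (the neurabins PPP1R9A and PPP1R9B, and PHACTR1 to PHACTR4, which bind both PP1 and monomeric actin). The ASPP proteins PPP1R13B and PPP1R13L, which bind p53 and its relatives, differed by 0.02 and 0.09. PPP1R15A (GADD34) and PPP1R15B (CReP), the stress-induced and the constitutive subunit that lead PP1 to eIF2α, differed in opposite directions, by 0.13 and -0.14. The catalytic subunits PPP1CA, PPP1CB and PPP1CC differed by 0.17, 0.00 and -0.12 with SEs of 0.15, 0.43 and 0.17.

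Golden Retriever OMMs (n = 8) were compared with all other OMMs (n = 20) with status in the model. Here 1 of 40 regulators passed the adjusted threshold, where 824 of all Transcript clusters did (2.54%, with 1.45% higher and 1.09% lower), a share of regulators near the background. It was CHP1, with lowest, median and highest values of 2.16, 2.84 and 4.01 in Golden Retriever OMMs and 1.87, 2.24 and 3.73 in other OMMs. CHP1 was higher by 0.73 (SE 0.18, limma adjusted p = 0.0427). The call did not hold with the first principal component as a covariate, where the difference was 0.36 (adjusted p = 1.0), without the Cross breed OMMs (0.64, adjusted p = 0.278), after quantile normalisation of the table (0.63, adjusted p = 0.0550), with limma's trend and robust options (adjusted p = 0.0541), or without any of 5 of the 8 Golden Retriever OMMs (M replicates 8, 10 and 15 and NM replicates 2 and 3), where adjusted p ran from 0.0906 to 0.129. Without M replicate 14, whose first principal component was the lowest of the 8 (-22.5), 4 regulators and 4908 Transcript clusters passed.

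Each of the 5 calcineurin regulators had a higher mean in Golden Retriever OMMs in the Transcript cluster used. The median difference of 0.36 was that of RCAN2 (SE 0.27, limma adjusted p = 0.354). The second Transcript cluster of RCAN2 differed by -0.06 (limma adjusted p = 0.827), in the other direction. Over all 40 regulators 20 were higher and 20 lower, where 36.5% of all Transcript clusters were higher and 63.5% lower. RCAN1 had lowest, median and highest values of 1.62, 1.77 and 2.93 in Golden Retriever OMMs and 1.31, 1.67 and 2.05 in other OMMs (difference 0.30, limma adjusted p = 0.0963), and without M replicate 15, the tumour at 2.93, the difference was 0.14 (unadjusted p = 0.107). PPP3CA, the main catalytic subunit of calcineurin, rose by 0.77 (SE 0.19, limma adjusted p = 0.0427). It had values of 2.08, 2.95 and 3.67 in Golden Retriever OMMs and 1.55, 2.15 and 2.97 in other OMMs. PPP3CB and PPP3CC had differences of 0.19 and -0.09 (adjusted p = 0.152 and 0.457). With the first principal component as a covariate, or without the Cross breed OMMs, no Transcript cluster passed in limma (1334 and 4883 had an unadjusted p under 0.05), so PPP3CA lost its call there as CHP1 did. PHACTR4, an actin-linked subunit, had a difference of 0.50 (limma adjusted p = 0.0631), with 4 of 8 Golden Retriever OMMs above the highest other OMM (2.11).

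Differences in the opposite direction were seen for PPP1R12C (-0.31, limma adjusted p = 0.0585), PPP1R16A (-0.30, 0.149), the glycogen targeting subunit PPP1R3D (-0.25, 0.0856) and PPP1R13L (-0.21, 0.147). At an unadjusted p under 0.05 there were 8 of 40 regulators, 4 higher and 4 lower, against 29.4% of all Transcript clusters. Among the regulators the sign went with signal. Of the 12 regulators with a mean log2 value of at least 2, 10 were higher in Golden Retriever OMMs with a median difference of 0.26, and of the 28 under 2, 10 were higher with a median of -0.07, the same as the median of all Transcript clusters (-0.07). The split at 2 was not made over all Transcript clusters, so whether it is particular to these regulators is unknown. The percentage of Transcript clusters over a log2 value of 4 was also higher on these arrays, 4.87% to 6.40% in Golden Retriever OMMs and 4.30% to 6.04% in other OMMs. The part of this array-wide shift in the regulators' differences was not tested beyond the fit with the first principal component. RNA quality also differed by breed. In the study's PCR assay the RNA of every Cross breed OMM scored as more degraded than that of most Golden Retriever OMMs. Golden Retriever OMMs with a negative first principal component scored within the Cross breed range. RNA quality was a term in none of the fits, so its part in the breed differences was not tested.

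Whether the M minus NM difference depended on breed was tested as an interaction of status with Golden Retriever origin. CHP1 had values of 4.01, 3.74, 3.30 and 3.0 in the 4 Golden Retriever M OMMs and 2.69, 2.37, 2.23 and 2.16 in the 4 Golden Retriever NM OMMs, so that the groups did not overlap. In the other breeds it averaged 2.39 in 14 M OMMs and 2.14 in 6 NM OMMs. The interaction for CHP1 was 0.89 (SE 0.33, limma unadjusted p = 0.0119, adjusted p = 1.0), and it does not pass the correction for 32391 tests, as no Transcript cluster did (0%). At an unadjusted p under 0.05 there were 2 of 40 regulators, against 3.07% of all Transcript clusters, and the sign was positive for 17 of 40 and negative for 23, against 48.4% and 51.6%. The first principal component did not separate these 8 tumours by status (-22.5 to 88.2 in M, -6.41 to 89.2 in NM). The interaction of CHP1 ran from 0.73 to 1.07 on leaving out each Golden Retriever OMM, and was 0.79 (unadjusted p = 0.0486) without the Cross breed OMMs.

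KNL1 and PPP1R37 were likewise without overlap in Golden Retriever OMMs. KNL1 was higher in the 4 M OMMs (1.36, 1.39, 1.42 and 2.12) than in the 4 NM OMMs (1.16, 1.18, 1.25 and 1.26), and PPP1R37 was lower in the M OMMs (1.42, 1.55, 1.55 and 1.59) than in the NM OMMs (1.61, 1.66, 1.89 and 1.90). Thus 2 of 40 regulators were higher and 1 lower without overlap, where 0.772% and 1.07% of all Transcript clusters were, and within Labrador Retriever OMMs (3 M and 2 NM) 6 were higher and 4 lower, where 11.3% and 11.6% were. CHP1, KNL1 and PPP1R37 are among the genes that the study chose on these tumours, so the counts are a description. The interaction was 0.27 for KNL1 (unadjusted p = 0.0751), but 0.08 (unadjusted p = 0.430) without M replicate 10, and it was -0.10 for PPP1R37 (unadjusted p = 0.462). PPP1R37 was also lower in all 3 Labrador Retriever M OMMs (1.48 to 1.73) than in both NM OMMs (1.80 and 1.99), whereas 6 Cross breed M OMMs (1.51 to 1.82) were above the only NM one (1.44). KNL1 and CHP1 lie in the same stretch of the dog genome, with 14 protein-coding genes between them in the RefSeq annotation of assembly UU_Cfam_GSD_1.0. The second Transcript cluster of GPATCH2, which the counts leave out, had an interaction of -0.46 (limma unadjusted p = 0.0308). It did not pass the adjusted threshold, and in the Transcript cluster used the interaction was 0.0065. The other regulator with an interaction at an unadjusted p under 0.05 was the endosomal subunit PPP1R21 (0.33, SE 0.13, p = 0.0191, adjusted p = 1.0). Without M replicate 10, a Golden Retriever tumour, the PPP1R21 interaction was 0.23 (unadjusted p = 0.0829), and without M replicate 8, another, it was 0.27 (unadjusted p = 0.0628).

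**Figure D3:**
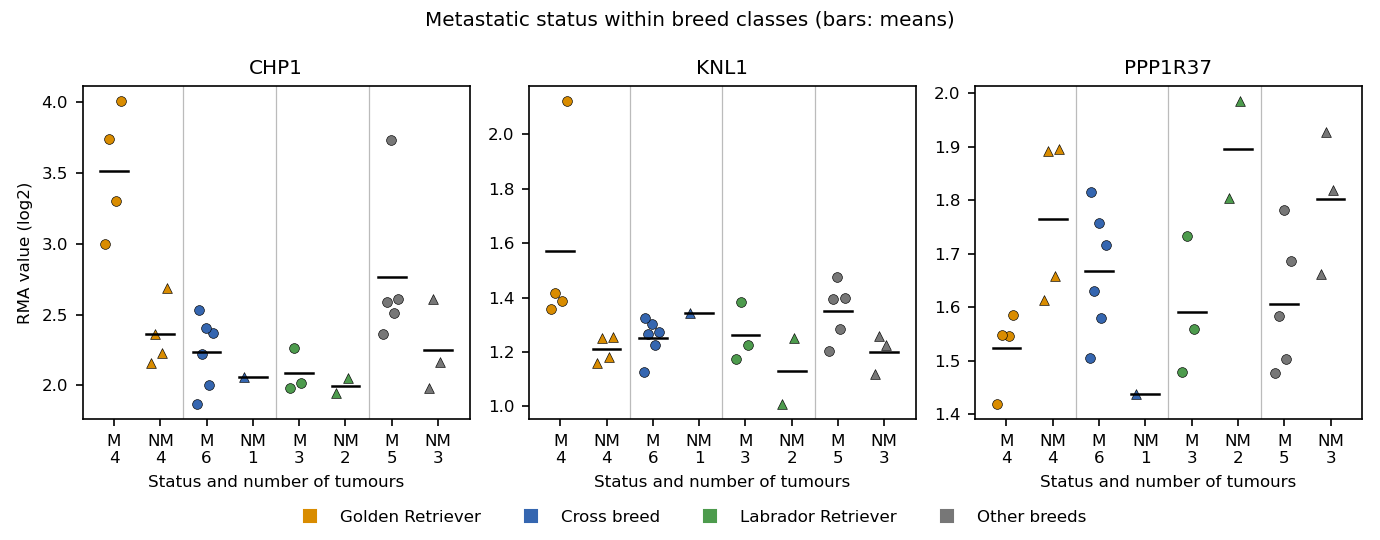
Log2 values of CHP1, KNL1 and PPP1R37 by breed class, with M OMMs (circles) left of NM OMMs (triangles) in each class; bars are means and the number under each column counts tumours. In Golden Retriever OMMs the M and NM points do not overlap for any of the 3 genes, and the Cross breed class has 1 NM tumour.

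Cross breed OMMs (n = 7) were set against all other OMMs (n = 21), again with status in the model. Of the 40 regulators 7 passed the adjusted threshold, against 19.4% of all Transcript clusters, a share near the background, and 10 had an unadjusted p under 0.05, against 36.9%. Of these, 4 rose and 3 fell in Cross breed OMMs, where 14.2% of all Transcript clusters rose and 5.15% fell. By sign 17 of 40 were higher and 23 lower, against 63.9% and 36.1% of all Transcript clusters. For each of the 40 the Cross breed and other OMMs overlapped, as they did for all but 0.0247% (higher) and 0.034% (lower) of Transcript clusters.

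The largest change was in PPP1R2, an inhibitor that holds PP1 in an inactive complex. Its lowest, median and highest values were 1.45, 1.73 and 2.35 in Cross breed OMMs and 1.86, 2.76 and 4.53 in other OMMs. The 7 Cross breed OMMs were under the median of the others, and PPP1R2 fell by 1.25 on the log2 scale (SE 0.33, limma adjusted p = 0.0110). PPP1R12A fell by 0.69 (SE 0.20, adjusted p = 0.0214), with 1.6, 1.93 and 2.27 in Cross breed OMMs and 1.82, 2.25 and 3.68 in other OMMs. PPP1R9B (spinophilin, which anchors PP1 at actin-rich structures) fell by 0.34 (SE 0.11, adjusted p = 0.0263), with 2.05, 2.17 and 2.44 in Cross breed OMMs and 2.15, 2.48 and 3.04 in other OMMs.

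Both membrane-anchored relatives of the myosin subunits rose. PPP1R16A rose by 0.51 (SE 0.12, limma adjusted p = 0.00781), with 1.86, 2.32 and 3.21 in Cross breed OMMs and 1.48, 1.98 and 2.20 in other OMMs, and 5 of 7 Cross breed OMMs were above the highest of the others. PPP1R16B (TIMAP), a membrane-associated protein known from endothelial cells, rose by 0.34 (SE 0.07, limma adjusted p = 0.00389). Its values were 1.57, 1.81 and 2.10 in Cross breed OMMs and 1.31, 1.48 and 1.98 in other OMMs. PPP1R1B rose by 0.41 (SE 0.11, adjusted p = 0.0126), and all 7 Cross breed OMMs (1.69 to 2.13) were above the median of the others (1.41). PHACTR1 rose by 0.23 (SE 0.08, adjusted p = 0.0488), while its second Transcript cluster differed by 0.20 and was not called (limma adjusted p = 0.168). The call of PHACTR1 did not hold without M replicate 17 (difference 0.15, adjusted p = 0.154), the Cross breed tumour with its highest value of 2.32, nor without any of 4 other Cross breed OMMs (replicates 3, 11, 12 and 13 of M, adjusted p 0.0571 to 0.0708) or after quantile normalisation or median centring of the table (0.121 and 0.130). PPP1R12A lost its call without M replicate 13 or 17 (adjusted p 0.0514 and 0.0534), and PPP1R9B without M replicate 3 or 4 (0.0531 and 0.0523).

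Of the 6 measured catalytic subunits of PP1 and calcineurin 3 fell in Cross breed OMMs. PPP1CB, the catalytic subunit of myosin phosphatase, fell by 1.65 (SE 0.39, limma adjusted p = 0.00624), with 2.39, 2.70 and 4.11 in Cross breed OMMs and 3.26, 4.32 and 6.62 in other OMMs. PPP1CA fell by 0.48 (adjusted p = 0.0264) and PPP3CA by 0.77 (adjusted p = 0.0155), while PPP1CC, PPP3CB and PPP3CC had differences of -0.40, -0.22 and 0.11 (adjusted p = 0.0996, 0.0942 and 0.328). The pathway lists held calls in both directions, where 14.2% of all Transcript clusters rose and 5.15% fell. Of 9 measured genes of the myosin phosphatase axis 2 fell and none rose. They were MYL12B, a myosin light chain (fell by 2.64, adjusted p = 0.00457), and ROCK2, a kinase that opposes myosin phosphatase (fell by 0.90, adjusted p = 0.0272). Of 10 measured genes of the eIF2α axis 2 fell and none rose, namely EIF2S1, which encodes eIF2α (fell by 1.3, adjusted p = 0.00691), and ATF4 (fell by 0.82, adjusted p = 0.0236). PPP1R15A and PPP1R15B, which serve that axis, had differences of -0.17 and -0.06 with adjusted p of 0.396 and 0.721. Of 5 calcineurin-binding immunophilins and anchors 1 fell and none rose, namely PPIA, the cyclophilin through which cyclosporin blocks calcineurin (fell by 1.90, adjusted p = 0.00305). Of 12 calcineurin substrates and effectors TFEB, a transcription factor of lysosomal genes, rose by 0.38 (adjusted p = 0.0423) and the kinase GSK3B fell by 0.69 (adjusted p = 0.0461). Of 8 genes of the actin axis the cofilin kinase LIMK1 rose by 0.42 (adjusted p = 0.0116), and the actins ACTG1 and ACTB fell by 1.33 and 0.75 (adjusted p = 0.00676 and 0.0204). Of 5 ASPP partners the p53 relative TP73 rose by 0.38 (adjusted p = 0.0180) and none fell. Of 10 kinetochore partners of KNL1 the checkpoint protein BUB3 fell by 0.69 (adjusted p = 0.0320) and none rose, and none of 10 glycogen enzymes passed (limma, with 2 at an unadjusted p under 0.05).

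As for Golden Retriever OMMs, the sign followed the signal among the regulators, in reverse, and again the split was not made over all Transcript clusters. Of the 12 regulators with a mean of at least 2, 10 were lower in Cross breed OMMs with a median difference of -0.30, and of the 28 others 13 were lower with a median of 0.01. The percentage of Transcript clusters over a log2 value of 4 was 4.30% to 4.91% in Cross breed OMMs and 4.82% to 6.40% in other OMMs. With the first principal component as a covariate none of the 40 regulators and 3 of all Transcript clusters passed (limma, with 2 regulators at an unadjusted p under 0.05), and the difference was -0.12 for PPP1R2, -0.04 for PPP1R12A, 0.12 for PPP1R16A, 0.25 for PPP1R16B, 0.13 for PPP1R1B, -0.28 for PPP1R9B and -0.01 for PHACTR1. Without the Golden Retriever OMMs 3 regulators passed (PPP1R2, adjusted p = 0.0419, PPP1R16B, 0.0334, and PHACTR4, which fell by 0.32, 0.0487). Golden Retriever and Cross breed OMMs each serve among the other OMMs in the opposite comparison, so the 2 comparisons share tumours. The more degraded RNA of the Cross breed OMMs was not modelled here either.

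**Figure D4:**
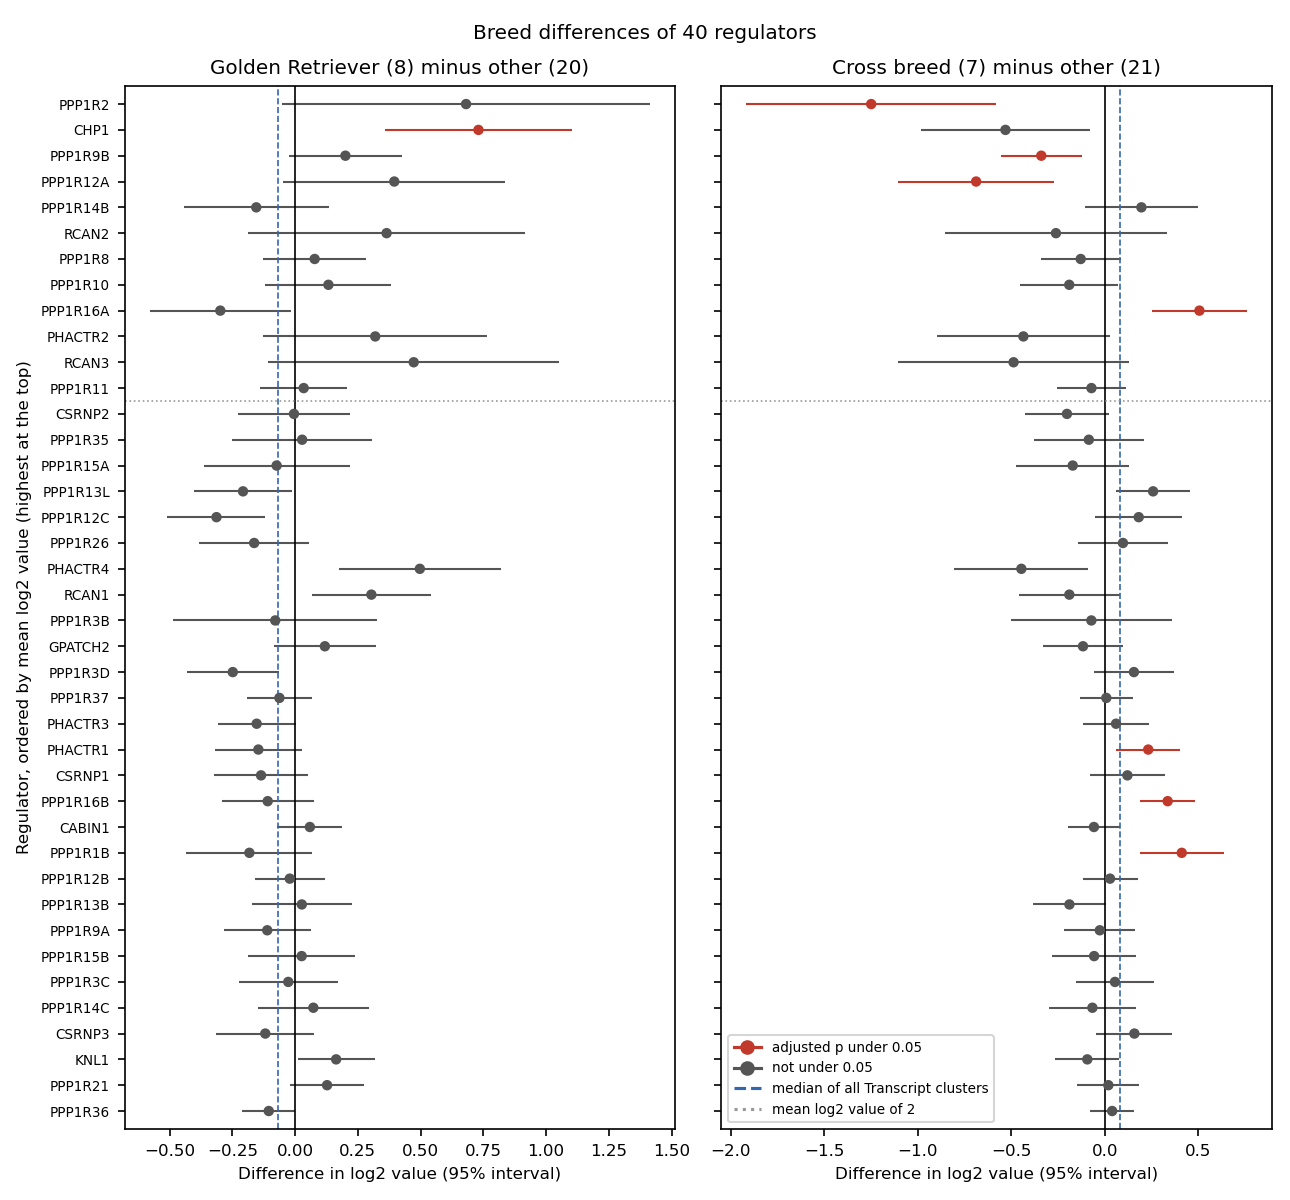
Differences in log2 value with 95% intervals for 40 regulators, Golden Retriever minus other OMMs (left panel) and Cross breed minus other OMMs (right panel), with regulators ordered by mean log2 value and adjusted p under 0.05 in red. The 12 regulators above the dotted line, with a mean of at least 2, are mostly to the right of 0 in the left panel and to the left of 0 in the right panel; CHP1 is red in the left panel and 7 regulators are red in the right panel.

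Marker lists of the cells a biopsy can hold were set beside these differences. Fibroblast markers had a higher mean in Golden Retriever OMMs for 10 of 10 measured genes (median difference 0.57, none past the adjusted threshold in limma) and a lower mean in Cross breed OMMs for 10 of 10 (median -0.67), of which DCN and LUM, proteoglycans of connective tissue, fell (by 1.74 and 1.52). Melanocyte markers were higher in Golden Retriever OMMs for 9 of 10 (median 0.71, GPR143 past the threshold) and lower in Cross breed OMMs for 9 of 10 (median -0.49), where the only one past the threshold, SOX10, rose by 0.58. Oral epithelium markers were higher in Golden Retriever OMMs for 12 of 13 (median 0.85, KRT5 past the threshold) and lower in Cross breed OMMs for 11 of 13 (median -0.84, none past the threshold and 6 at an unadjusted p under 0.05). Endothelial markers were higher in Golden Retriever OMMs for 8 of 11 (median 0.09, none past the threshold) and lower in Cross breed OMMs for 8 of 11 (median -0.09), of which PECAM1 and ENG fell. Of all Transcript clusters 36.5% were higher and 63.5% lower in Golden Retriever OMMs, and 63.9% higher and 36.1% lower in Cross breed OMMs. Past the adjusted threshold 1.45% rose and 1.09% fell in Golden Retriever OMMs, and 14.2% rose and 5.15% fell in Cross breed OMMs. Skeletal muscle markers were lower in Golden Retriever OMMs for 12 of 13. They were higher in Cross breed OMMs for 8 of 13, near the share of all Transcript clusters, and 1 rose past the threshold. Leukocyte markers were lower for 9 of 16 in Golden Retriever OMMs. In Cross breed OMMs they were lower for 10 of 16, above the share of all Transcript clusters, though 2 rose past the threshold. Smooth muscle and pericyte markers were lower for 6 of 11 in both comparisons, and Schwann cell markers for 3 of 6. Of the smooth muscle and pericyte markers 1 rose and 1 fell past the threshold in Cross breed OMMs. The mean of the oral epithelium markers was between 1.55 and 4.42 in Golden Retriever OMMs and between 1.54 and 3.6 in other OMMs, and that of the fibroblast markers was between 2.31 and 2.79 in Cross breed OMMs and between 2.30 and 5.02 in other OMMs. The part of these lists in the regulators' differences was tested no further than the correlations given next. In bulk biopsies fewer cells of a type and less RNA per cell cannot be told apart. Whether the marker differences went with RNA quality was not tested. Regulators with a known place in a cell type or programme were therefore set against the mean log2 value of its markers over the 28 tumours, in 11 measurable pairs with p adjusted over the 11.

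KNL1 went with 23 proliferation genes (Pearson r = 0.754, adjusted p = 0.00829, Spearman rho = 0.384, adjusted p = 0.0962, permutation tests). With the first principal component regressed out of both sides r was 0.690 (permutation test, adjusted p = 0.0176). It was 0.775 (adjusted p = 0.0240) outside the Cross breed OMMs and 0.323 within them. Without the 2 tumours farthest from the median of the list r was 0.383 (adjusted p = 0.113). These were M replicate 10, with the highest value on both axes (2.12 for KNL1 and 2.51 for the list), and M replicate 7, which was high for the list (1.97) but not for KNL1 (1.23). Of the 23 proliferation genes 22 were higher in M OMMs, with a median difference of 0.11, where 50.4% of all Transcript clusters were higher. At a limma unadjusted p under 0.05 there were 3 higher, where 0.976% of all Transcript clusters were. None passed the adjusted threshold. The proliferation mean was 1.44 to 2.51 in M OMMs and 1.5 to 1.83 in NM OMMs, and its part in the KNL1 difference was not tested.

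**Figure D5:**
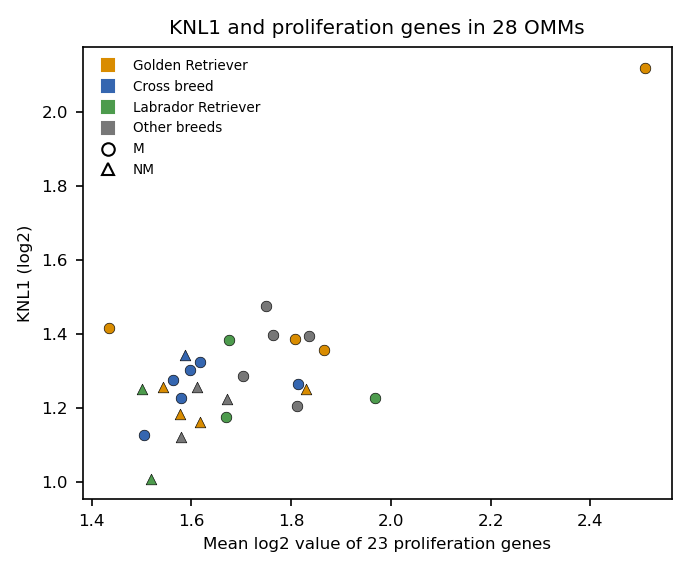
KNL1 (log2 value) against the mean log2 value of 23 proliferation genes in 28 OMMs, with circles for M and triangles for NM and colours for breed class. One Golden Retriever M OMM at 2.51 and 2.12 stands apart, and r is 0.754 with all tumours and 0.383 without the 2 farthest along the horizontal axis.

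PPP1R16B went against 11 endothelial markers (r = -0.567, adjusted p = 0.00829, rho = -0.631, adjusted p = 0.00572, permutation tests). Without the 2 farthest tumours r was -0.576 (adjusted p = 0.0113), but it was -0.331 (adjusted p = 0.264) in the 21 OMMs other than Cross breed and -0.119 in the 7 Cross breed OMMs. PHACTR1 also went against endothelial markers (r = -0.523, adjusted p = 0.0102, rho = -0.566, adjusted p = 0.00693, permutation tests), with -0.462 (adjusted p = 0.110) outside the Cross breed OMMs and 0.186 within them, and -0.472 (adjusted p = 0.0425) without the 2 farthest tumours. With the first principal component regressed out of both sides r was -0.271 for PPP1R16B and -0.018 for PHACTR1.

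PPP1R1B went against 13 oral epithelium markers (r = -0.643, adjusted p = 0.00176, rho = -0.574, adjusted p = 0.00693, permutation tests). This held outside the Cross breed OMMs (r = -0.601, adjusted p = 0.0240) and without the 2 farthest tumours (r = -0.629, adjusted p = 0.00572), whereas r was 0.823 within the 7 Cross breed OMMs, and -0.241 with the first principal component regressed out. PPP1R13L (iASPP, which is known for its place in stratified epithelium) went against the same markers (r = -0.517, adjusted p = 0.0102, rho = -0.550, adjusted p = 0.00693, permutation tests), with -0.476 (adjusted p = 0.0425) without the 2 farthest tumours and -0.433 (adjusted p = 0.110) outside the Cross breed OMMs. PPP1R14C went with them (r = 0.453, adjusted p = 0.0348, rho = 0.271, adjusted p = 0.30, permutation tests), but r was 0.126 without the 2 farthest tumours. No relation past an adjusted p of 0.05 was found for PPP1R12B with smooth muscle markers (r = 0.076), for PPP1R15A, CSRNP1 and RCAN1 with immediate early genes (r = 0.059, 0.269 and -0.229), or for PPP1R3C with hypoxia and glycolysis genes (r = 0.198). Within the 7 Cross breed OMMs r was 0.918 for PPP1R15A (exact permutation test, adjusted p = 0.0524), 0.835 for CSRNP1 (0.106) and 0.802 for PPP1R3C (0.109), and in the 21 others -0.090, 0.121 and 0.165.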

How the data were processed

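Expression was measured on canine gene arrays, 1 array per tumour, in 18 M and 10 NM OMMs. The authors made the deposited log2 values with Affymetrix Expression Console 1.3, where the RMA algorithm quantile normalised probe signals across arrays, log2-transformed them and summarised them per Transcript cluster; tumours whose arrays stood out in quality metrics had been dropped. Their filter on detection above background needs exon-level values not used here, so all 32391 Transcript clusters were tested. Arrays have no counts, and the number of tumours limits precision. Nothing in the labels names a scan or labelling batch.

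Groups came from the sample titles and breed labels. Differences were tested with limma 3.58.1 in R 4.3.3 with Benjamini-Hochberg adjustment over all Transcript clusters and a threshold of 0.05, after a test on simulated data. Breed comparisons had status as a covariate. Correlations were tested by permutation (100000 resamples, two-sided, fixed seed) in Python 3.11.15. Gene names came from the platform annotation, with the brightest Transcript cluster per gene (16878 Transcript clusters carry 1 symbol, 289 several and 15224 none). Tables of gene sequences were not used here.

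The members, marker lists and pairs were chosen with earlier results of these data known. Values are given by rule for the 5 genes the study lists, for up to 5 regulators in each direction with the smallest unadjusted p per comparison, for those with the 4 highest means or SDs, and for those of the pairs. Pathway genes named are the catalytic subunits and up to 3 per list by smallest p. Alternatives were the methods' t-test without its permutation adjustment, other limma options, array weights, other normalisations, Transcript clusters with a mean above the median alone, breed and replicate number as blocks, the first principal component as a covariate, and leaving out tumours. Same-numbered M and NM tumours are from different dogs, and their deviations did not go together (4 of 10 pairs correlated above 0.1), so the numbers pair nothing.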

Additional observations from a re-analysis of the deposited data

Results flagged for a closer look

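Of 120 groups of 7 to 10 tumours (the NM, Golden Retriever and Cross breed OMMs for each of 40 regulators), 11 held a single tumour far from the others of its group, by a rule meant to flag about 1 in 20. The groups share tumours, and the share flagged among all Transcript clusters was not determined. The count is therefore no result about the regulators. NM replicate 3, a Golden Retriever OMM, had 2.37 for PPP1R14C, against 1.31 ± 0.14 (SD, n = 9) in the other NM OMMs and 1.25 ± 0.13 (SD, n = 7) in the other Golden Retriever OMMs. M replicate 10 had 2.12 for KNL1 against 1.29 ± 0.10 (SD, n = 7) in the other Golden Retriever OMMs, and M replicate 15 had 2.93 for RCAN1 against 1.80 ± 0.19 (SD, n = 7) in them. Among Cross breed OMMs, M replicate 17 stood apart for both CSRNP1 (2.32 against 1.57 ± 0.14, SD, n = 6) and PHACTR1 (2.32 against 1.73 ± 0.07, SD, n = 6), M replicate 13 for PPP1R9A (1.69 against 1.46 ± 0.04, SD, n = 6) and NM replicate 10 for PPP1R15B (1.93 against 1.29 ± 0.11, SD, n = 6). Among NM OMMs, NM replicate 2 stood apart for PPP1R15A (2.19 against 1.80 ± 0.09, SD, n = 9), NM replicate 8 for PPP1R26 (2.70 against 1.78 ± 0.11, SD, n = 9) and NM replicate 4 for PPP1R35 (3.03 against 1.96 ± 0.23, SD, n = 9).

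The M minus NM difference was larger in Golden Retriever OMMs than in the others for CHP1 by 0.89 (limma interaction, unadjusted p = 0.0119) and for PPP1R21 by 0.33 (unadjusted p = 0.0191). Neither passed adjustment over all Transcript clusters (adjusted p = 1.0 for both).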

How the results depend on the processing

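No regulator had an adjusted p under 0.05 between M and NM OMMs in any of these fits. The count at an unadjusted p under 0.05, 3 of 40, was 1 with breed as a fixed block, 5 with the first principal component as a covariate (chosen after seeing the data) or without the Cross breed OMMs, and 2 to 5 on leaving out each tumour; over all Transcript clusters 825 became 362 among the Transcript clusters with a mean above the median (the brighter ones), 1353 and 1335 with breed as a random and a fixed block, 1561 with the principal component and 1773 without the Cross breed OMMs. With the replicate block 4 regulators and 858 Transcript clusters had an unadjusted p under 0.05 and none an adjusted one. Golden Retriever calls, 824 in all and 1 regulator, were 104 and 0 after quantile normalisation, 2214 and 3 among the brighter ones, 241 and 0 with trend and robust options, 0 and 0 with the principal component or without the Cross breed OMMs, and 2 to 4908 and 0 to 4 on leaving out a Golden Retriever OMM (2 without M replicate 8, 4908 without M replicate 14, and each of the 8 moved the count of 824 by over 1.5 times). Cross breed calls, 6281 and 7, were 3 and 0 with the principal component, 2144 and 3 without the Golden Retriever OMMs, and 3771 to 5841 and 5 to 7 on leaving out a Cross breed OMM (3771 without M replicate 17). The interaction had 0 calls and 2 regulators at an unadjusted p under 0.05, which became 1 regulator among the brighter ones, and 0 to 1 calls and 1 to 4 regulators on leaving out a Golden Retriever OMM. Signs turned with the principal component for PPP1R2 (-0.34) and PPP1R16A (0.063) in the Golden Retriever comparison and for PHACTR1 (-0.0067), PHACTR4 (0.155) and CHP1 (0.163) in the Cross breed one. Of the correlations, those that lost their call had r of -0.331, -0.462, -0.433 and 0.441 for PPP1R16B, PHACTR1, PPP1R13L and PPP1R14C without the Cross breed OMMs, -0.271, -0.018, -0.081, 0.295 and -0.241 for these and PPP1R1B with the principal component regressed out, and 0.126 and 0.383 for PPP1R14C and KNL1 without the 2 farthest tumours; PPP1R12B turned to -0.276 without those 2 and PPP1R15A to -0.090 without the Cross breed OMMs. The causes were not tested. Most regulators had low signal, which limits what these arrays can show.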
